A study of Mus musculus with 8 samples.

Results

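The region described here is the stretch of mouse chromosome 13 that holds the large cluster of replication-dependent histone genes, chr13:21800001-23870000 in the mm9 build, 2.07 Mb long. Every nucleotide position with crosslinked cDNAs inside that stretch, on either strand, was taken, with no choice by signal. The interval held 301 of the 769652 positions of replicate 1, 689 of the 2093525 positions of replicate 2 and 2144 of the 3846902 positions of a merged track. The series comprised 8 mouse samples. The 2 used here were SRSF3-GFP iCLIP libraries of neonatal C57BL/6 cardiomyocytes taken at P0-1, and their labels name no gene deletion and no tamoxifen. The other 6 samples were hearts of adult SRSF3flox/flox;alphaMHC-CreERT2 mice (3) and alphaMHC-CreERT2 control mice (3), both given 4-hydroxytamoxifen, and they are not analysed here. In iCLIP, UV light joins a protein to the RNA it touches in living cells, and each cDNA ends next to the joined nucleotide. The protein was a GFP fusion of SRSF3 made from transfected modRNA, so the libraries report the added fusion and not the SRSF3 of the cells themselves. There was no control precipitation and no measure of RNA abundance, and in a bulk culture fewer cells that make an RNA and less RNA per cell cannot be told apart. Markers of cardiomyocytes and of other cell types were not checked, because no gene annotation of the mm9 build was used.

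Replication-dependent histone genes encode the linker histone H1 and the core histones H2A, H2B, H3 and H4, and are transcribed mainly while a cell copies its DNA. Their mRNAs have no introns and no poly(A) tail, and end in a short stem-loop that is bound by the stem-loop binding protein SLBP. SRSF3 is a small SR protein that acts in splicing and in mRNA export. It and the related SRSF7 are known to bind a short element in a histone H2A mRNA and to promote the export of RNA that lacks introns.

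The reference transcripts show what the histone mRNAs of this cluster look like to such an experiment. GENCODE M21, on the later GRCm38 build, held 54 protein-coding genes named Hist1 on chromosome 13, and 53 were used here (1 longer than 1000 nt without a stem-loop was left out). The shortest transcript of each gene was taken and, where it held the stem-loop described below, cut 5 nt beyond it, which shortened 33 of the 53. The bodies so defined had a median length of 451 nt, from 312 to 2546 nt, and the transcripts as annotated 485 nt, from 312 to 7425 nt. By class the median body length was 742 nt for H1, 454 nt for H2A, 441 nt for H2B, 502 nt for H3 and 394 nt for H4, and 46 of the 53 bodies lay between 200 and 700 nt, against 36 of the uncut transcripts. A stem-loop motif of 16 nt, read as GG, any 2 bases, CTTTT, any base, AG, any 2 bases and CC and searched on the sense strand, was present in 35 of the 54 genes (64.8%) and in 45 of 55380 other genes (0.0813%). Only the shortest transcript of each Hist1 gene was searched, but every transcript of the other genes. Genes without the motif include Hist1h2bl and Hist1h4k, annotated at 381 and 312 nt. A transcript annotated short of its 3′ end would miss the motif, so its absence does not show that a gene lacks the stem-loop. The sequences below show 1 gene of each class with the stem-loop in capitals, because it was the element found in most of these genes and in few others.

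Hist1h1e: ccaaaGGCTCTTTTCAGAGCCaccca

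Hist1h2ab: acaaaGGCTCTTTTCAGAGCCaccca

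Hist1h2bb: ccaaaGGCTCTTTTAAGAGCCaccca

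Hist1h3b: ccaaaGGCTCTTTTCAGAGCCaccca

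Hist1h4b: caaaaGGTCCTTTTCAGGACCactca

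The stem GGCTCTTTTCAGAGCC was the most frequent form, in 20 genes. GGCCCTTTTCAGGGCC and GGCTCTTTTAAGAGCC were each found in 6 genes, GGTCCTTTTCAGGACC in 2 and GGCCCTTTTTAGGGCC in 1.

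The bodies of these mRNAs are copies of each other over long runs, which bears on how far a short read can be placed in this region. Of all 30-nt windows of the 53 bodies, 57.8% were found without mismatch in another gene. The share was 10.3% in H1, 78.1% in H2A, 75.7% in H2B, 66.4% in H3 and 66.5% in H4, and in 42 of the 53 genes it passed 50%. The 30-nt sequences below are those shared by the most genes of each class, given 5′ to 3′ in lower case, and show reads that match several genes equally well.

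H1: acgatgtggagaagaacaacagccgcatca

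H2A: gccatccgcaacgacgaggagctcaacaag

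H2B: ctggcgcattacaacaagcgctcgaccatc

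H3: aagctgccgttccagcgcctggtgcgcgag

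H4: aagcccgccatccgccgcctggcccggcgc

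The H2A sequence was present in 13 of 13 H2A genes of the cluster and in 48 genes of the annotation in all. The H2B sequence was in 14 of 14 genes and 19 in all, the H3 sequence in 9 of 9 and 14 in all, and the H4 sequence in 11 of 11 and 12 in all. The H1 sequence was in 5 of 6 genes and in no gene outside them. The sources used here do not say how the authors treated reads that match several places, and its part in every level below was not tested.

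**Figure D1:**
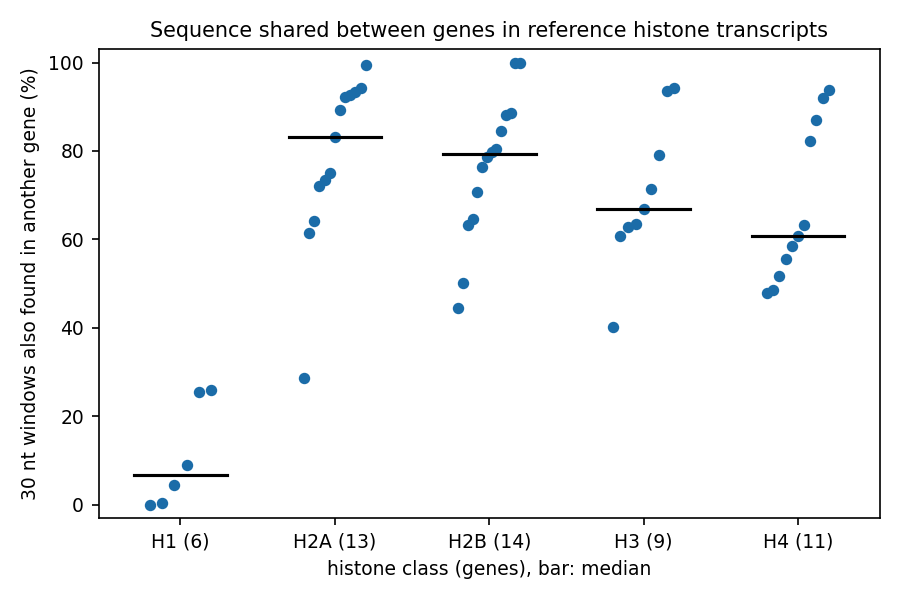
Each point is the body of 1 reference histone transcript of chromosome 13, by class (x axis), and the y axis is the percentage of its 30-nt windows found without mismatch in another gene. The H1 genes lie between 0 and 25.9%, whereas H2A genes reach 99.5% and H2B genes 100%.

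Within the interval, replicate 1 held 415 cDNAs, 0.0509% of its 815414 cDNAs (95% Wilson interval 0.0462 to 0.0560%). Replicate 2 held 1011 cDNAs, 0.0449% of 2253688 (0.0422 to 0.0477%). Per 1000000 cDNAs of the library (CPM) the interval stood at 508.9 and 448.6, or 478.8 ± 42.7 CPM (SD, n = 2). The ratio of the replicates was 0.18 on the log2 scale (95% interval 0.01 to 0.35), with p = 0.0309 by a two-sided exact binomial test on the library totals and 0.124 after Benjamini-Hochberg adjustment over the 4 sums compared. Intervals and p-values here cover counting error only. The labels do not say that the replicates were separate cultures, and both headers carry the same library identifier, so the spread between them may be technical.

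Averaged over its whole length, the histone interval was not rich in SRSF3 crosslinks. It held 246 CPM per Mb in replicate 1 and 217 in replicate 2, against 323 and 326 over the rest of chromosome 13 and 391 in each over the autosomes. Its level was 0.712 ± 0.068 (SD, n = 2) of the rest of chromosome 13 and 0.592 ± 0.053 of the autosomes. Among 1241 stretches of 2.07 Mb on the autosomes and X, 46.1% held fewer cDNAs in replicate 1 and 42.1% in replicate 2, so the interval was near the middle of stretches of its size in both replicates. The strands were even: the plus strand held 50.6% of the cDNAs of the interval in replicate 1 and 48.5% in replicate 2.

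The signal lay at both ends of the interval and left its centre nearly empty. The left end, chr13:21800001-22200000, held 142 and 361 cDNAs in replicates 1 and 2, or 43.5 and 40.0 CPM per 100 kb. The right end, chr13:23300001-23870000, held 247 and 610 cDNAs, or 53.1 and 47.5 CPM per 100 kb. The centre, chr13:22200001-23300000, held 26 and 40 cDNAs over 1100 kb, which is 2.90 CPM per 100 kb (exact 95% Poisson interval 1.89 to 4.25) in replicate 1 and 1.61 (1.15 to 2.20) in replicate 2. The borders of these blocks were chosen after the values were seen. For their length, both ends stood above the autosome level of 391 CPM per Mb in each replicate. Without the 2 strongest sites described below, both stood under it. In the RefSeq gene order of GRCm38.p6, 24 histone genes precede and 31 follow a run of 75 Vmn1r genes, which encode vomeronasal receptors, and no histone gene lies between them. The same stretch holds 77 tRNA genes, none of them between the Vmn1r genes. The builds differ and no coordinate was converted, so the blocks were not matched to these genes and no cluster below is given a gene name.

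**Figure D2:**
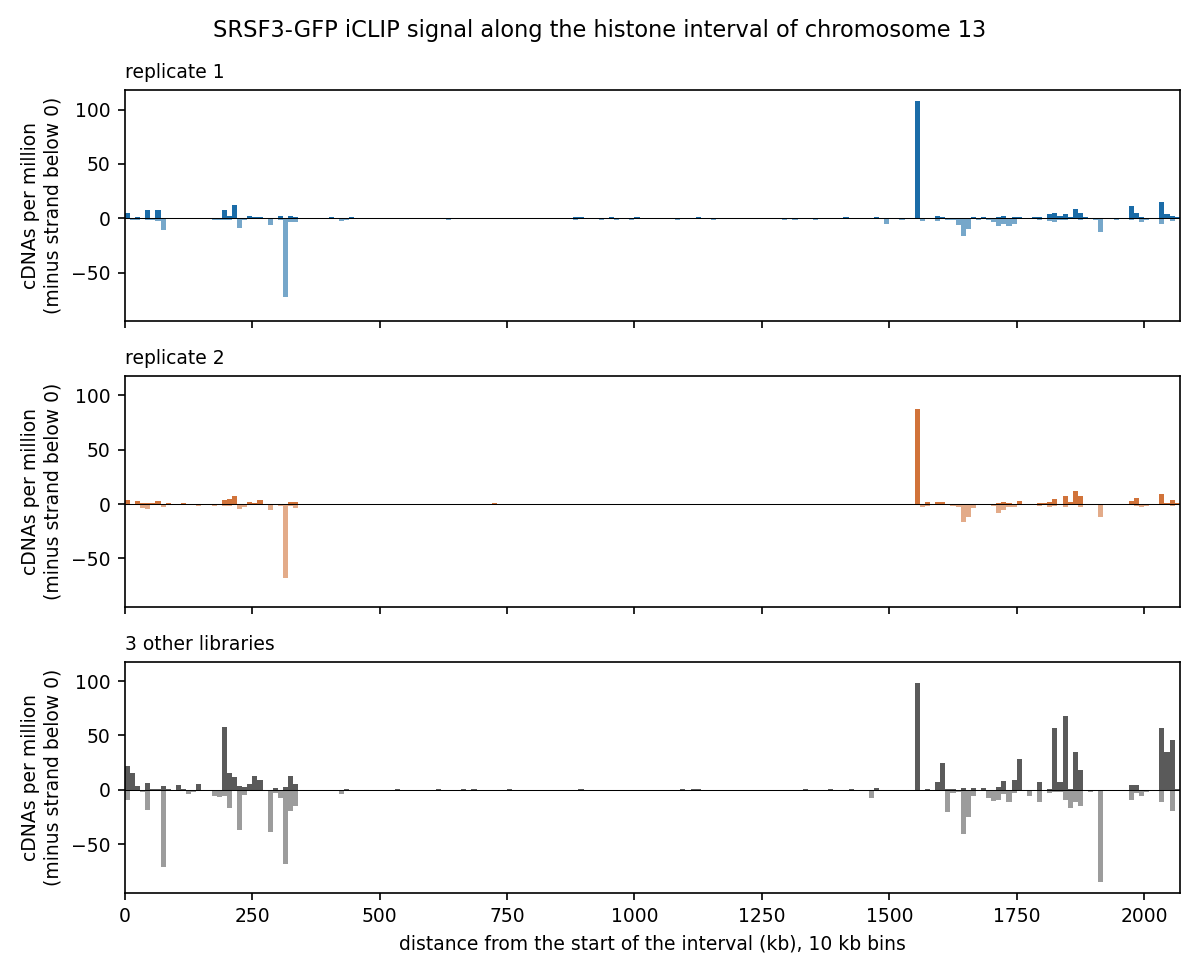
Level per 10 kb bin (CPM, y axis) along the interval (distance from its left end, x axis) in replicate 1, replicate 2 and the other libraries of the merged track, with the plus strand above and the minus strand below 0. Signal is seen at both ends, the centre is nearly empty, and the tallest bin of each replicate holds the plus-strand site of 108 and 87.4 CPM.

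Binding was sparse at the scale of a gene. Of 4140 windows of 1 kb, counted on each strand, 389 (9.40%) held any cDNA of either replicate, against 14.9% on the autosomes and X. Of those 389 windows, 222 (57.1%) held a single cDNA. At least 10 cDNAs were found in 14 windows (0.338%), where the autosomes and X had 1.11%, and at least 20 in 3 windows (0.0725% against 0.307%). Replicate 1 had cDNAs in 176 windows and replicate 2 in 317, and 104 windows were shared, which is 59.1% of those of replicate 1 and 32.8% of those of replicate 2. None of the 3 windows with at least 20 cDNAs differed between the replicates at an adjusted p under 0.05 (two-sided exact binomial test, Benjamini-Hochberg over all windows tested), and none did so at an unadjusted p under 0.05, which at these depths does not show that their levels were equal. Over all 16212 windows tested, 0.105% were called.

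Positions on a strand were joined into a cluster where they lay at most 100 nt apart, and clusters with at least 10 cDNAs over both replicates were kept. The interval held 13 such clusters, with 192 cDNAs (46.3%) in replicate 1 and 439 (43.4%) in replicate 2. Of these, 6 spanned 200 to 700 nt, 7 were shorter and 0 were longer. That band, called histone size here, holds most reference histone mRNA bodies but 0 of the 6 H1 bodies, the shortest of which is 725 nt. No cluster contained a cDNA on the opposite strand in any library. A span measures where cDNAs start, and the bound RNA reaches beyond it.

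Clusters of histone size were common throughout the genome, and their frequencies here are descriptions without a test. They made up 46.2% of its clusters but 73.2% (18105 of 24731) of clusters on the autosomes and X, and stood at 2.90 per Mb in the interval against 6.86 per Mb there. The share was higher in the interval under 1 setting only. Where positions up to 200 nt apart were joined, histone-sized clusters were 38.5% of those in the interval and 34.8% of all clusters. Every other setting run gave a lower share in the interval, such as 0 against 42.5% with a gap of 50 nt and 25% against 48.0% with at least 5 cDNAs. With the gap of 100 nt, short clusters made up 53.8% against 10.4% on the autosomes and X. The median span was 164 nt against 395 nt, while the median number of cDNAs per cluster was near, 13 against 15. Spans of 60 to 90 nt accounted for 4 of the 13 clusters (30.8%) and for 0.695% of all clusters on the autosomes and X. The tRNA genes in the RefSeq stretch were 71 to 106 nt long (median 73), and 74 of the 77 measured 60 to 90 nt, but overlap of these clusters with tRNA genes was not tested.

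**Figure D3:**
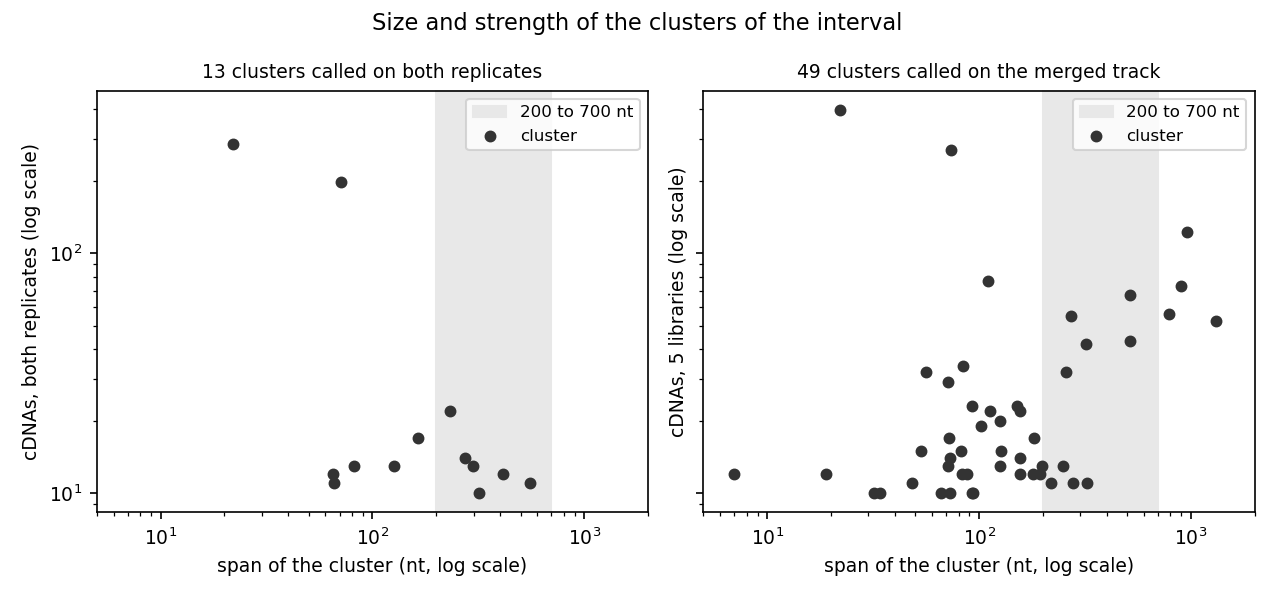
Span of each cluster in the interval (nt, x axis, log scale) against its cDNAs (y axis, log scale), for the 13 clusters called on the replicates (left) and the 49 called on the merged track (right), with 200 to 700 nt shaded. The strongest cluster of the left panel is 22 nt wide with 285 cDNAs, and the 6 points in its shaded band hold at most 22.

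The strongest crosslinking of the interval sat in a pair of sites far narrower than a histone mRNA. The site chr13:23359815-23359836 on the plus strand is 22 nt wide and held 88 cDNAs in replicate 1 and 197 in replicate 2. That is 108 and 87.4 CPM (97.7 ± 14.5, SD, n = 2), and 21.2% and 19.5% of all cDNAs in the interval. It ranked 198 of 24761 clusters by the CPM of the lower replicate, within the top 0.800%. The log2 ratio of the replicates was 0.30 (95% interval -0.08 to 0.67; exact binomial p = 0.107). Both replicates had their highest position at 23359822, with 15 and 32 cDNAs (17.0% and 16.2% of the site), and the median cDNA lay 8 and 9 nt from the 5′ end. Each replicate covered 20 of the 22 positions, 18 of them shared, and the 100 nt on either side held 0 cDNAs in both.

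The other site, chr13:22113023-22113093 on the minus strand, is 71 nt wide and held 56 and 142 cDNAs in the replicates, or 68.7 and 63.0 CPM (65.8 ± 4.01). These are 13.5% and 14.0% of the interval, and the site ranked 305 (1.23%). The log2 ratio of the replicates was 0.12 (-0.35 to 0.58; exact binomial p = 0.574). Its cDNAs were gathered at the 3′ side: the last 26 nt held 69.6% and 70.4% of them. The highest position was 22113028 in both replicates, with 10 and 23 cDNAs (17.9% and 16.2%), and 19 of the 25 positions of replicate 1 recurred in replicate 2.

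**Figure D4:**
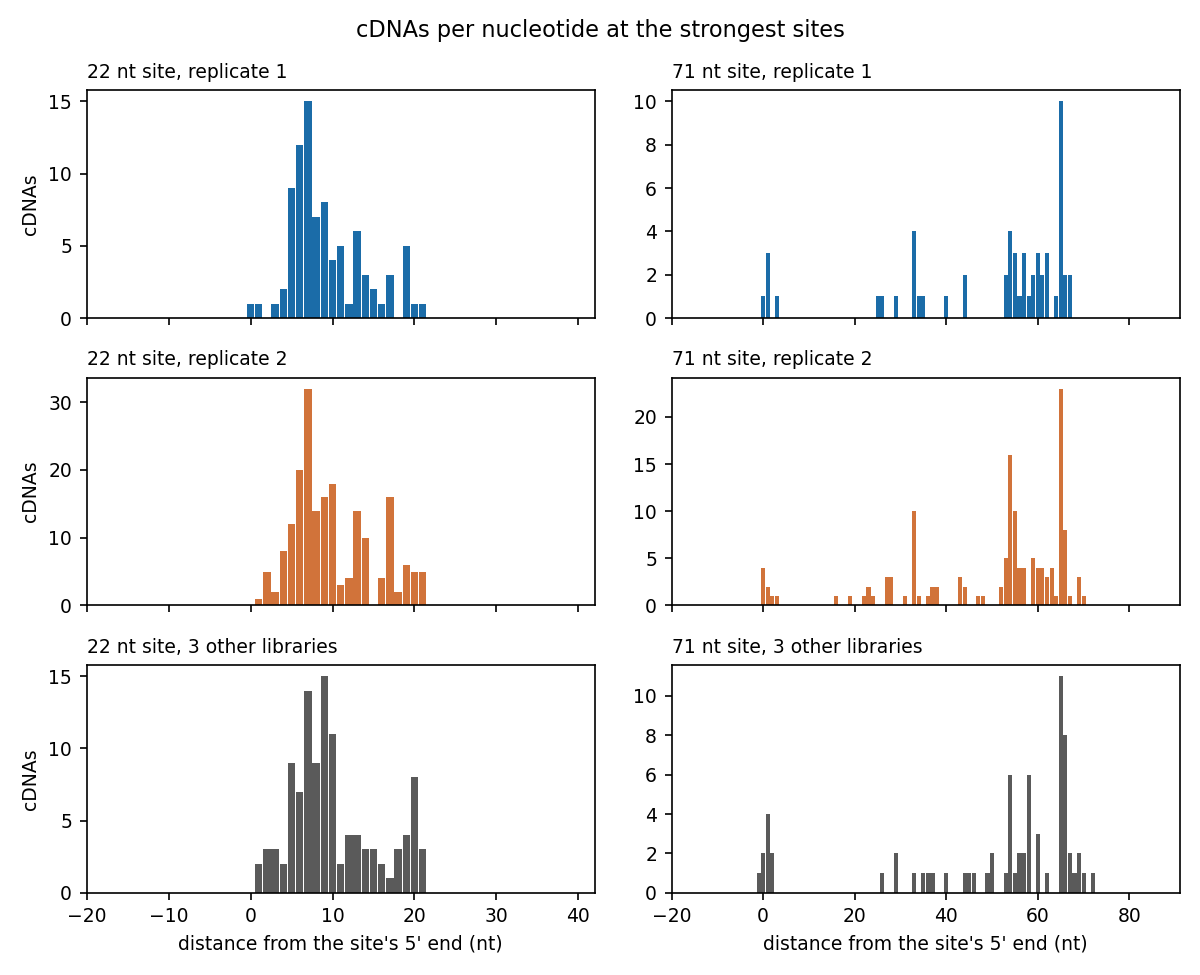
Number of cDNAs at each position (y axis, with its own scale in each panel) along both strongest sites (distance from the 5′ end in nt, x axis), for replicate 1, replicate 2 and the other libraries. In each library the 22-nt site is filled almost throughout and the 71-nt site is densest in its last 26 nt.

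Both sites together held 34.7% of the cDNAs of the interval in replicate 1 (95% Wilson interval 30.3 to 39.4%) and 33.5% in replicate 2 (30.7 to 36.5%), a mean of 34.1 ± 0.826% (SD, n = 2), on 93 nt. Without them the interval fell to 271 and 672 cDNAs, or 332 and 298 CPM (315 ± 24.2). They also carried most of the positional agreement. Of the 301 positions of replicate 1 in the interval, 49 (16.3%, Wilson 12.5 to 20.9%) recurred at the same nucleotide in replicate 2. Inside the sites 37 of 45 did (82.2%), and outside them 12 of 256 (4.69%, 2.70 to 8.01%), where the whole track stood at 5.02%.

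The 6 clusters of histone size were weak and held few cDNAs in replicate 1. The strongest, chr13:22011078-22011309 on the plus strand (232 nt), held 9 and 13 cDNAs, or 11.0 and 5.77 CPM (8.40 ± 3.73). Its highest position, 22011133, had 6 and 3 of these. The cluster chr13:22085844-22086115 on the minus strand (272 nt) held 5 and 9 cDNAs. On the plus strand, chr13:23831093-23831389 (297 nt) held 5 and 8, and chr13:23647204-23647522 (319 nt) held 2 and 8. A pair of neighbours on the minus strand, chr13:23448758-23449169 (412 nt) and chr13:23448099-23448653 (555 nt), held 4 and 8, and 2 and 9. In no case did another of the 6 clusters start on the other strand within 1 kb in the divergent layout that H2A and H2B gene pairs often have. Of the 49 clusters of any size called on the merged track, 2 lay in that layout. They were chr13:22126963-22127087 on the minus strand (125 nt) and chr13:22128063-22128242 on the plus strand (180 nt). Both were shorter than histone size and held 0 cDNAs in both replicates, so the replicates do not show such a pair.

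Summed over the 6 clusters, replicate 1 held 27 cDNAs, 6.51% of the interval (95% Wilson interval 4.51 to 9.30%), and replicate 2 held 55, 5.44% (4.20 to 7.01%). The mean was 5.97 ± 0.754% (SD, n = 2), on 2087 nt of sequence. The density was 12.9 and 26.4 cDNAs per kb inside them and 0.0938 and 0.231 per kb in the rest of the interval. That ratio, 126 ± 16.9, is a description, because the clusters were found by their cDNAs. Clusters found in the other libraries of the merged track gave a ratio that is free of that choice: 5 clusters of histone size held 10 and 25 cDNAs of the replicates, 51.3 and 52.7 times the density of the rest. Of those 5 clusters, 2 held 0 cDNAs in both replicates, so the ratio rests on 3. The rest of the interval includes its nearly empty centre, and no such ratio was computed elsewhere in the genome. The ratio therefore does not show that histone-sized clusters stand out here. The count of 6 rested on adding the replicates, since replicate 1 alone reached 10 cDNAs in 0 clusters of that size and replicate 2 alone in 1. It was also 0 where positions had to lie within 50 nt, and 1 where a cluster needed 20 cDNAs.

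Of the 13 clusters, 0 differed between the replicates at an adjusted p under 0.05 (exact binomial test, Benjamini-Hochberg over all clusters) and 0 at an unadjusted p under 0.05, beside 0.0848% called over all 24761 clusters. The counts are small and leave room for a difference: the log2 ratio of the 6 summed clusters was 0.44, with an interval from -0.28 to 1.13.

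Apart from the 2 strongest sites, the clusters of other sizes were chr13:23714264-23714427 on the minus strand (164 nt), with 4 and 13 cDNAs, chr13:23524873-23524954 on the minus strand (82 nt), with 3 and 10, and chr13:22114251-22114376 on the minus strand (126 nt), also with 3 and 10. The remaining clusters, named after their values were seen, were chr13:21998972-21999036 on the plus strand (65 nt), with 5 and 7 cDNAs, and chr13:22023021-22023086 on the minus strand (66 nt), with 6 and 5.

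The merged track held a larger share of its cDNAs in the histone interval than the replicates did. It is the sum of both replicates and 3 further libraries, whose preparation the labels do not describe. The header of the merged track names SRSF3 and CM, but whether the 3 libraries come from the same kind of experiment as the replicates is not known, so their levels are not read here as binding by the same fusion protein. These other libraries were taken as the merged track minus the replicates, 1138453 cDNAs in all, and cannot be separated from each other, so their comparisons have 1 sample on that side and compare libraries, not conditions. In the interval they held 1662 cDNAs, 0.146% (95% Wilson interval 0.139 to 0.153%), or 1460 CPM against 465 CPM for the replicates together, 3.14-fold higher (2.93 to 3.37). At the 2 strongest sites the levels were 159 and 157 CPM, a ratio of 1.01 (0.847 to 1.20). Outside those sites they were 1301 and 307 CPM, 4.23-fold higher (3.90 to 4.60). The excess was found outside the sites that dominate the replicates.

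Per site, the 22-nt site stood at 98.4 CPM in the other libraries with 112 cDNAs, and the 71-nt site at 60.6 CPM with 69 cDNAs, each within or just below the range of the replicates. The last 26 nt of the 71-nt site held 75.4% of its cDNAs there, and 22113028 was again its highest position, with 11 cDNAs. The highest position of the 22-nt site was 23359824, with 15 cDNAs, and not the 23359822 of both replicates. The pair made up 10.9% of the interval in the other libraries (9.48 to 12.5%), where it made up 34.7% and 33.5% of the replicates.

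Few stretches of the genome had as high a ratio of the other libraries to the replicates. In the other libraries the interval had a higher level than 85.1% of stretches of 2.07 Mb. It held 705 CPM per Mb there, against 316 for the rest of chromosome 13 and 389 for the autosomes. The rest of chromosome 13 was close to the replicates, which held 323 and 326 CPM per Mb. The autosome level is nearly fixed by division by the library total, so its match does not show agreement. Among 919 stretches with at least 1000 cDNAs over the 5 libraries the median ratio of the other libraries to the replicates was 1.01, and 4 stretches had a higher ratio than the histone interval. Over all 1241 stretches, with no minimum, 11 did. Stretches lower in the other libraries were not counted. The stretches were laid end to end on each chromosome, so some of them overlap the interval itself. The excess followed the blocks: without the 2 strongest sites the left end held 26.4 and 24.3 CPM per 100 kb in the replicates and 122 in the other libraries, and the right end 34.2 and 32.2 against 138. The centre held 2.48 CPM per 100 kb in the other libraries, within the 2.90 and 1.61 of the replicates.

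The same excess was found in clusters chosen without the other libraries. Of the 11 clusters called on the replicates beside the 2 strongest sites, 9 had a higher CPM in the other libraries than in both replicates, which held for 10.2% of the 24761 clusters so called in the genome. A lower CPM than in both replicates was found for 1 of the 11 and for 72.2% of the 24761. These 11 held 48 and 100 cDNAs in the replicates, or 58.9 and 44.4 CPM, and 230 in the other libraries, or 202 CPM. The exception was the 82-nt cluster chr13:23524873-23524954, which had 2 cDNAs there, below both replicates, while chr13:22011078-22011309 with 8 lay between them.

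Clusters called on the merged track describe the excess at a finer scale, but they were chosen in part by the other libraries. There were 49 with at least 10 cDNAs, 23 in the left block, 26 in the right and 0 in the centre, with 24 on the plus strand and 25 on the minus strand. Tested against the library totals, 29 of the 49 were higher in the other libraries at an adjusted p under 0.05 (two-sided exact binomial test, Benjamini-Hochberg over 42404 clusters), 0 were lower and 20 were not called. Over all clusters 5.30% were called higher and 1.99% lower. At an unadjusted p under 0.05, 34 of the 49 differed. The median log2 ratio was 2.89 in the interval, with clusters that had no cDNA in the replicates at the bound that 3 cDNAs give, and -0.15 over all clusters. A cluster can pass the minimum through the libraries where it is high, which applies to the genome's clusters too. Of the 29 called higher, 5 held 0 cDNAs in both replicates and passed through the other libraries alone. The calls and p-values of merged-track clusters, here and below, are therefore descriptions and not support for the excess. The count of 29 higher clusters was also 29 without replicate 1 and 15 without replicate 2, the deeper library.

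By size, 4 of the 4 clusters longer than 700 nt were higher, 6 of the 9 of histone size and 19 of the 36 shorter ones. Over the genome 5.30% of clusters of all sizes were called higher, and the share within each size was not computed. Spans were measured on a track that holds the other libraries, whose cDNAs can lengthen a cluster. Size and call are therefore not independent, and no trend with size is read from these clusters. The longest, chr13:23447857-23449169 on the minus strand (1313 nt), spans both weak neighbours described above and held 7 and 20 cDNAs in the replicates and 25 in the other libraries, a log2 ratio of 1.32 (0.47 to 2.16, adjusted p = 0.0244, exact binomial test). The cluster chr13:23713470-23714428 on the minus strand (959 nt) held 8, 23 and 92 cDNAs, or 9.81, 10.2 and 80.8 CPM. Its log2 ratio was 3.00 (2.40 to 3.64, exact binomial test with adjusted p = 3.54e-25). On the minus strand as well, chr13:21871598-21872496 (899 nt) held 5, 3 and 65 cDNAs, or 6.13, 1.33 and 57.1 CPM, with a log2 ratio of 4.45 (3.39 to 5.72, exact binomial test with adjusted p = 1.20e-25). On the plus strand, chr13:23855466-23856249 (784 nt) held 2, 5 and 49 cDNAs.

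Among the clusters of histone size, chr13:23647169-23647686 on the plus strand (518 nt) held 2 and 10 cDNAs in the replicates and 55 in the other libraries, a log2 ratio of 3.63. The cluster chr13:23830949-23831465 (plus strand, 517 nt) held 6, 8 and 29 cDNAs, a log2 ratio of 2.48. At chr13:23626017-23626336 (plus strand, 320 nt) the replicates held 0 and 1 cDNA and the other libraries 41, a log2 ratio of 6.79 with an interval from 4.23 to 12.13. All of these were called higher. The counts of the replicates at each are too few to describe a profile.

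The long clusters were covered thinly, unlike both strongest sites. Evenness was looked at only by a split at the midpoint. In the 959-nt cluster the other libraries covered 10.8% of the positions with at most 4 cDNAs at any of them, and 52.2% of cDNAs lay in the 5′ side of its span, split at the midpoint. Within that cluster the 164-nt stretch chr13:23714264-23714427 held 32 of the 92 cDNAs of the other libraries, so coverage was not even at a finer scale. In the 899-nt cluster 7.56% of positions were covered, with at most 2 cDNAs each and 41.5% on the 5′ side. The 784-nt cluster had 51.0% there and the 1313-nt cluster 48.0%. Some of the clusters of histone size were lopsided: the 272-nt cluster chr13:22085844-22086115 had 90.2% of its 41 cDNAs on the 5′ side, 13 of them at 1 position, and the 320-nt cluster had 7.32%.

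Short clusters also took part in the excess. At chr13:21998968-21999077 on the plus strand (110 nt) the replicates held 5 and 7 cDNAs and the other libraries 65, a log2 ratio of 3.87 (exact binomial test, adjusted p = 7.20e-23). At chr13:22027377-22027447 on the minus strand (71 nt) they held 0, 1 and 28. Of the 11 clusters with spans of 60 to 90 nt, 5 were higher and 6 were not called. The share called among clusters of such spans in the genome was not computed. These spans made up 22.4% of the merged clusters of the interval and 0.771% of those of the genome. The 71-nt and 22-nt sites, by contrast, were not called, with log2 ratios of -0.05 (-0.46 to 0.35) and 0.08 (-0.25 to 0.40).

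**Figure D5:**
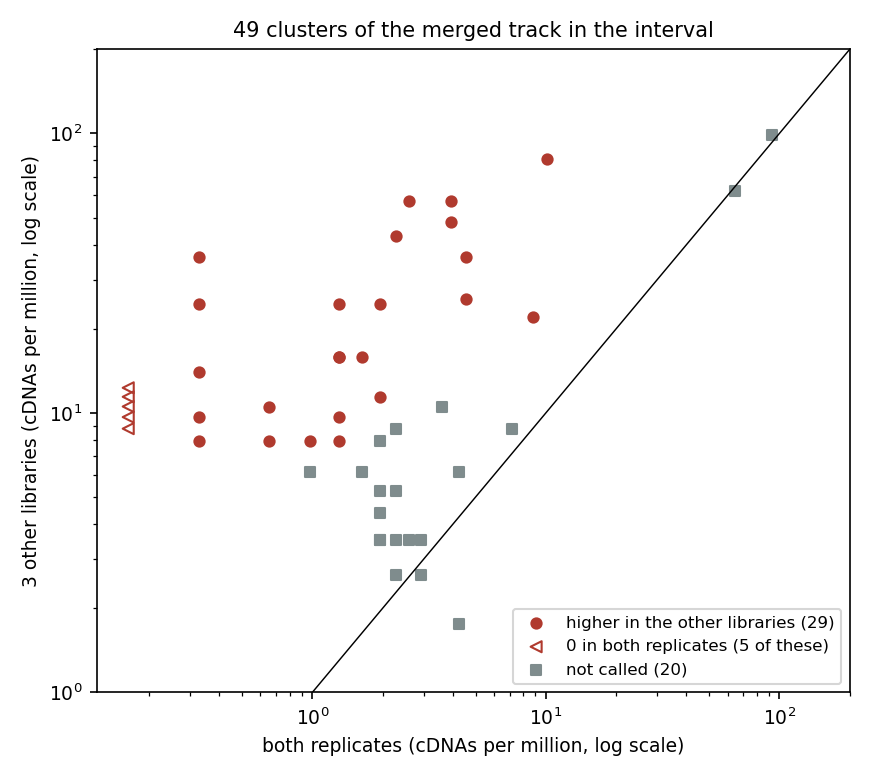
Level of each of the 49 merged-track clusters in both replicates together (CPM, x axis, log scale) and in the other libraries (CPM, y axis, log scale), with the line of equal levels. Circles are clusters called higher in the other libraries and squares are clusters not called. Open triangles are clusters with 0 cDNAs in both replicates, drawn at the left edge; both strongest sites lie near the line and 29 clusters called higher lie above it.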

How the data were processed

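iCLIP was done on neonatal mouse cardiomyocytes. Per the labels' protocols, cells received 15 µg of SRSF3-GFP modRNA by lipofection and, after 48 h, 100 mJ of UV light at 254 nm, and RNase I cut RNA to 80 to 200 nt before precipitation with a goat antibody to GFP.

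The deposited tracks hold a signed score per position, made by the authors, with cDNAs as its size and the strand as its sign, on mm9 with Ensembl 59, per the file headers. Reads were mapped with Bowtie 0.10.1, per the submitters' processing notes. Scores are not scaled to depth, and the collapsing of duplicates is not given in the sources used.

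Scores were summed per library, strand and 1 kb window or cluster and divided by library totals. Tests were exact binomial against the ratio of totals with Benjamini-Hochberg adjustment at 5%, and procedures were tested on simulated data. Wilson and Poisson intervals are at 95%. The named clusters are those of histone size (up to 20, of which 6 exist) and the 5 highest of other sizes by the lower replicate, and the last 2 of other sizes and clusters of the merged track were added after their values were seen. The interval, lists and rules were chosen with earlier results of these data known. Reference sequences come from GENCODE M21 and gene order from RefSeq, both on GRCm38. Software was Python 3.11.15 with pandas 2.3.3, numpy 2.4.6, scipy 1.17.1 and matplotlib 3.10.9.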

Additional observations from a re-analysis of the deposited data

Results flagged for a closer look

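The merged track held 1662 cDNAs of the interval beyond those of the 2 replicates, in libraries that the labels do not describe, beside 415 and 1011 in the replicates. Also set apart were 5 clusters of the merged track with 0 cDNAs in both replicates. They reached the minimum of 10 cDNAs through the other libraries alone, so their difference from the replicates was set by that choice. All 5 are among the 29 clusters called higher above, and for them that call is no support for a difference. They were chr13:23654102-23654257 on the minus strand with 14 cDNAs, chr13:22126963-22127087 on the minus strand with 13, and chr13:22128063-22128242 on the plus strand with 12. The last 2 were chr13:21813961-21814179 with 11 and chr13:21809856-21809949 with 10, both on the plus strand. A count of 0 allows up to 3 cDNAs in a library, which is 3.68 CPM in replicate 1 and 1.33 CPM in replicate 2.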

How the results depend on the processing

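The level of the interval (479 CPM) stayed within the spread of the replicates with mitochondrial cDNAs left out of the total (483) and ranged from 448.6 to 508.9 with either replicate left out. It was 360.1 with positions in place of cDNAs, 1460 in the other libraries and 315 without the 2 strongest sites. The number of histone-sized clusters (6) was 0 with a gap of 50 nt, 1 with at least 20 cDNAs, 0 with at least 50 and 3 with spans of 300 to 600 nt, and 0 to 1 with a replicate left out. It was 5 to 9 under the other settings. Their share of the interval (5.97%) was 0 with the 50 nt gap and with at least 50 cDNAs, 7.22% with at least 5 cDNAs, 1.73% with at least 20, 2.20% with spans of 300 to 600 nt, 7.10% with 150 to 1000 nt and 2.44% with clusters called on the other libraries, and 0 to 1.29% with a replicate left out. Their density over the rest (126) was 314 with at least 20 cDNAs, 72.4 with spans of 300 to 600 nt, 52.0 with clusters called on the other libraries and 83.7 with those of the merged track, and 232 without replicate 1. It had no value without replicate 2 and with the 50 nt gap or at least 50 cDNAs, where no cluster was left. No window or histone-sized cluster differed between the replicates under any setting run. The 29 clusters higher in the other libraries were 15 without replicate 2.

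No paired analysis was possible because the iCLIP libraries form 1 group, and no heart sample was compared. With 815414 cDNAs in replicate 1, clusters near the minimum of 10 cDNAs rest on few cDNAs per replicate.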
